A study of Mus musculus with 4 samples.

Results

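Myogenic cells isolated 14 days after muscle injury were compared with myogenic cells isolated 3 days after injury. The comparison uses 2 of the 4 arrays of the series, 1 for each day, chosen by their labelled time after cardiotoxin and because both were deposited in the same set of records. Both groups were C57BL/6 mice of 8 to 12 weeks whose hind limb muscle had received cardiotoxin, a venom component that kills muscle fibres and spares the stem cells that rebuild them. The day 3 group and the day 14 group differed by label in time alone, and the other 2 arrays were of cells from days 2 and 5. The labels call the cells myogenic and name the antibody SM/C-2.6, which binds the surface of satellite cells. They were used as isolated, with no culture. The sources used here do not give the number of animals behind each array or any other antibody of the isolation. No uninjured muscle was among the 4 arrays.

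Satellite cells are the stem cells of skeletal muscle and lie between the fibre and its basement membrane. In intact muscle they are quiescent and express the transcription factor Pax7. After injury they enter the cell cycle as myoblasts, switch on Myod1 and then Myog, and either fuse into new fibres or withdraw from the cycle and return to the niche. Genes of division, of contraction and of the niche therefore serve as the main landmarks when an early and a late stage of regeneration are compared.

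Promoter windows of 4 genes are shown because each gene was at least 5-fold lower on day 14 by its brightest probe set and stands for a list described further on (mitosis, DNA replication, the neuromuscular synapse and the sarcomere). Each window runs from 250 bases before the annotated start of the gene to 50 bases after it and was taken from RefSeq (GRCm38.p6), which gave a window for 9888 of the 12394 genes named on the array. Hmmr, which encodes a spindle-associated hyaluronan receptor, lies on the minus strand at chr11:40733388-40733687. Cdc6, which loads the replicative helicase, lies on the plus strand at chr11:98907901-98908200. Chrng, the fetal gamma subunit of the muscle acetylcholine receptor, lies on the plus strand at chr1:87205561-87205860. Acta1, skeletal alpha-actin, lies on the minus strand at chr8:123894726-123895025. Sequences are written 5′ to 3′ in the direction of the gene. Capitals mark matches on either strand to the CHR and CCAAT box in Hmmr, the E2F site in Cdc6, the E-box in Chrng, and the E-box and CArG box in Acta1.

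Hmmr: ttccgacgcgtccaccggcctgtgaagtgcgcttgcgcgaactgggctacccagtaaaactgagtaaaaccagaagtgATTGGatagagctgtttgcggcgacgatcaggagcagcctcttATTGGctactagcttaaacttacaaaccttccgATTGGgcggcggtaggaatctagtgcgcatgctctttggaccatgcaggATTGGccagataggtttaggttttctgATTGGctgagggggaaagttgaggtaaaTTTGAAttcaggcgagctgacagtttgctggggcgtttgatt
Cdc6: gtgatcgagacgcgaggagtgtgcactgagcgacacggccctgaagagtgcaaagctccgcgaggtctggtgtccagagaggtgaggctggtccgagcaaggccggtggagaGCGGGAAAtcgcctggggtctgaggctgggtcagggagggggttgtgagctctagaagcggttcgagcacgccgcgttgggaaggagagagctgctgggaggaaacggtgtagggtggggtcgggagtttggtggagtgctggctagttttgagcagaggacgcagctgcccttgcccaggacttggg
Chrng: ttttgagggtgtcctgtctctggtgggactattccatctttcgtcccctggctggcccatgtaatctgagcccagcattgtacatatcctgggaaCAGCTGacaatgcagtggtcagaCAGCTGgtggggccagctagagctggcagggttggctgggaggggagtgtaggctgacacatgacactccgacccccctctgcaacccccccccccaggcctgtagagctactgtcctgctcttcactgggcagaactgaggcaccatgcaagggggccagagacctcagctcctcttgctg
Acta1: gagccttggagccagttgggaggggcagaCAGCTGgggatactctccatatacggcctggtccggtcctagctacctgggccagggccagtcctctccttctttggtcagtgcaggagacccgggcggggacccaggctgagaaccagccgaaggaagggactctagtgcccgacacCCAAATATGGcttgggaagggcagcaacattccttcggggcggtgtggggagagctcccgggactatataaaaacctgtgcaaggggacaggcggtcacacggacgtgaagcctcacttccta

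Hmmr held 5 CCAAT boxes, the nearest 20 bases before the start, and 1 CHR element that began 9 bases after it. Cdc6 held 1 E2F site 138 bases before the start. Its window also held an E-box (CAGCTG) after the start, left in lower case because capitals in Cdc6 mark the E2F site alone. Chrng held 2 E-boxes, at 155 and 132 bases before the start. Acta1 held a CArG box 73 bases and an E-box 221 bases before the start. Each match is a description of letters in the window.

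Signals are MAS5 values in arbitrary units after scaling to a common 2% trimmed mean. A signal below 43.0, the median of all scaled values, was treated as lying at that floor, so a ratio that touches the floor is a lower bound and is written as at least N-fold. Of 12394 named genes, 7774 were above the floor on at least 1 of the 2 arrays and count as measured. Of these, 1270 were at least 2-fold higher on day 14 (16.3%), 896 were at least 2-fold lower (11.5%) and 5608 were not called, and the median log2 ratio of day 14 over day 3 was 0.09. Among the measured genes, 900 were above the floor on day 14 alone and 335 on day 3 alone, so 305 of the higher and 94 of the lower calls are lower bounds. With 1 array a day there is no replicate and no test, and higher or lower means a ratio of at least 2-fold between these arrays. Values of a gene are those of its brightest probe set, and its other probe sets are given where their median moved the ratio by over 1.5 times or lost the call. Increases reached further than decreases: 95 genes were at least 8-fold higher and 25 at least 8-fold lower, and 26 and 6 genes passed 16-fold.

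**Figure D1:**
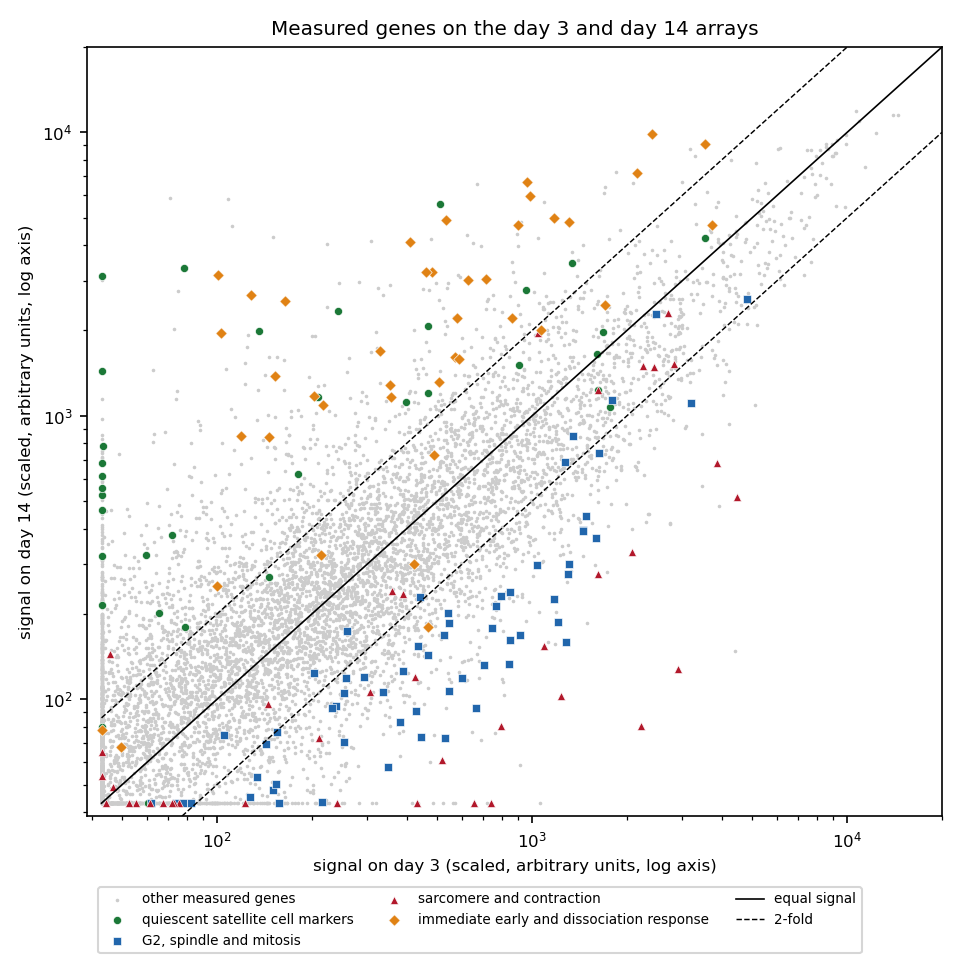
Signal of each measured gene on the day 3 array (x axis) and the day 14 array (y axis), scaled MAS5 units on log axes with values below the floor of 43.0 drawn at the floor, and dashed lines at 2-fold. Quiescence markers and immediate early genes lie mostly above the upper dashed line, and mitosis genes and a group of sarcomere genes below the lower one.

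The balance of higher and lower calls depended on how the arrays were scaled. Higher calls made up 58.6% of calls with the trimmed mean, 72.5% with the values as deposited, 52.5% after quantile normalization, 50.6% after scaling on the hybridisation controls and 35.1% after scaling to a common median. These scalings moved the median of all genes by 0.18, -0.11, -0.11 and -0.32 on the log2 scale, in the same order. Calls made under all of them numbered 807 higher (10.4% of measured genes) and 614 lower (7.9%). Of the 47 gene lists with a median, 38 kept 1 sign under all scalings, and the 9 others are named where they are described.

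**Figure D2:**
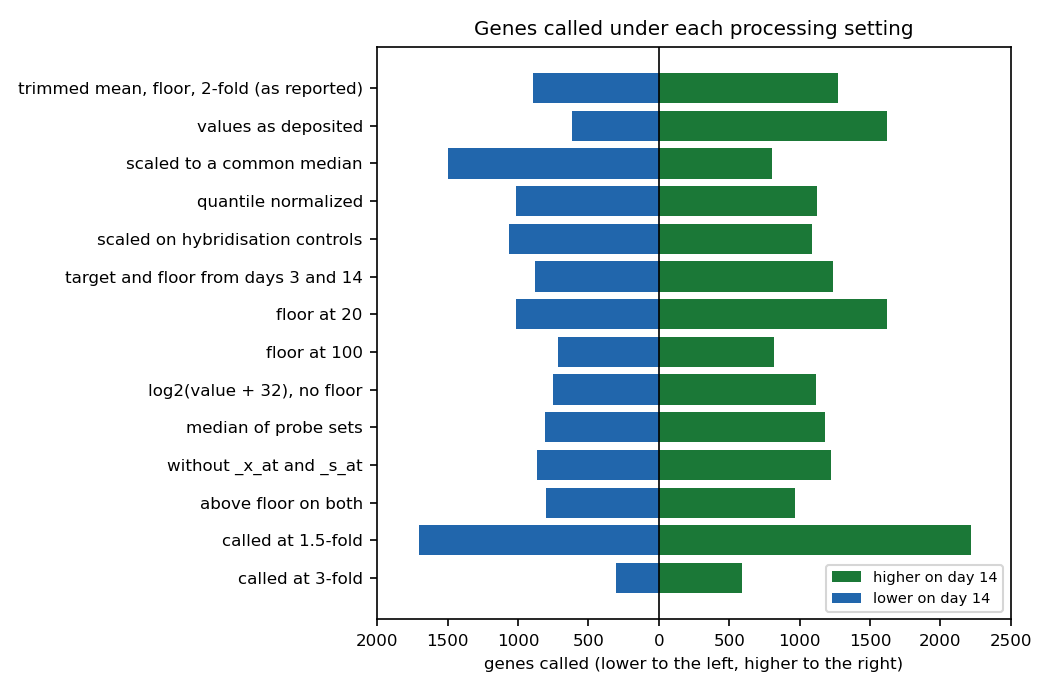
Number of genes called higher (right) and lower (left) on day 14 than on day 3 under the reported setting and 13 other settings. Scaling to a common median gave 807 higher and 1495 lower calls, the reverse of the balance under the other settings, and the values as deposited gave 1621 and 614.

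Several markers of muscle stem cells and myoblasts were above the floor on both arrays, but not all. The satellite cell markers Calcr and Cd34, described below, were below the floor on day 3, and Pax7 was near it (59.4). Cdh15, the adhesion molecule M-cadherin of satellite cells and myoblasts, read 1606 on day 3 and 1653 on day 14 (1.03-fold higher, not called). Myod1, the transcription factor of committed myoblasts, read 1405 on day 3 and 935 on day 14 (1.5-fold lower, not called), and Vcam1, a surface adhesion molecule of satellite cells, read 1338 on day 3 and 3449.8 on day 14 (2.58-fold higher). Markers of neutrophils, red cells and lymphocytes were near or below the floor on both arrays: all 8 neutrophil and both erythroid markers lay below it, and of 10 lymphocyte markers 1, Ighm, was above it (90.8 and 55.1 on days 3 and 14). Technical measures also differed between the arrays. The 3 probe sets for 18S ribosomal RNA had a geometric mean of 2644 on day 3 and 1030.1 on day 14, and signal at the 3′ end of Gapdh was 1.88 and 2.84 times that at its 5′ end, a measure that depends on RNA length, while for Actb the ratios were 2.2 and 2.14. The probe sets for poly-A control transcripts had a median log2 ratio of 0.04 between these arrays and, on days 2 and 5, median log2 ratios of 0.80 and 0.63 over day 3. Gapdh, Actb and Tbp, common reference genes, had no call, and Hprt read 1877 on day 3 and 849 on day 14 (2.21-fold lower, a call not kept under every scaling). The part of these differences in the results below was not tested.

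Genes of quiescent satellite cells were mostly higher: of 35 measured markers (37 on the array), 26 were higher on day 14 (25 under every scaling) and none was lower, with a median log2 ratio of 2.32. The median was 1.58 among genes above the floor on both arrays, below the immediate early genes described later, whose median was at least 1.70 in every setting. The list was chosen with earlier results of these data known. Chodl, the membrane lectin chondrolectin, was below the floor on day 3 and read 3123 on day 14 (at least 72.7-fold higher). Calcr, the calcitonin receptor that holds satellite cells in quiescence, was below the floor on day 3 and read 615 on day 14 (at least 14.3-fold higher). Cd34, a sialomucin found on quiescent satellite cells and endothelium, was below the floor on day 3 and read 526 on day 14 (at least 12.2-fold higher). All 3 were thus measured on day 14 alone. Prelp, a leucine-rich proteoglycan, read 78.8 on day 3 and 3313 on day 14 (42.1-fold higher, with log2 ratios from 3.02 to 5.39 and a median of 4.21 over its 2 measured probe sets), and Tenm4, a transmembrane teneurin, read 43.5 on day 3 and 783 on day 14 (18-fold higher). Chrdl2, an antagonist of BMPs, was below the floor on day 3 and read 683 on day 14 (at least 15.9-fold higher). Spry1, an intracellular inhibitor of growth factor receptor signalling needed for return to quiescence, read 241 on day 3 and 2334 on day 14 (9.66-fold higher). Pax7, the transcription factor that defines satellite cells, read 59.4 on day 3 and 323 on day 14 (5.44-fold higher).

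Regulators of the myogenic programme had calls on both sides, 27.8% of the measured ones higher and 16.7% lower. Over all measured genes the shares were 16.3% and 11.5%. Myf5, an early myogenic factor, read 469 on day 3 and 2081 on day 14 (4.44-fold higher), and Msc, a bHLH repressor also called MyoR, read 204 on day 3 and 1919 on day 14 (9.41-fold higher). Meox2, a homeobox gene of somites and muscle, was below the floor on day 3 and read 123 on day 14 (at least 2.87-fold higher). Myod1 was 1.5-fold lower and was not called. Late genes were among the lower ones. Myog, the factor of terminal differentiation, read 3876 on day 3 and 1835 on day 14 (2.11-fold lower, a call not kept under every scaling). Mymk, the membrane protein myomaker that drives myoblast fusion, read 1017 on day 3 and 368 on day 14 (2.76-fold lower). Over the whole list of regulators, of 18 measured genes (24 on the array), 5 were higher on day 14 (4 under every scaling) and 3 were lower (2 under every scaling), with a median log2 ratio of -0.04, a sign that changed with the scaling (medians from -0.31 to 0.22).

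Genes that hold myoblasts back from differentiation were mostly higher. Among Id proteins and bHLH repressors, of 13 measured genes (17 on the array), 8 were higher on day 14 (7 under every scaling) and 1 was lower (under every scaling), with a median log2 ratio of 1.78. Id3, which sequesters the partners of Myod1 and is a target of BMP signalling, read 688 on day 3 and 3987 on day 14 (5.8-fold higher), and Id4 read 75.2 on day 3 and 321 on day 14 (4.27-fold higher, with log2 ratios from 0.71 to 2.09 and a median of 1.06 over its 3 measured probe sets). The family was not uniform: Id1 read 246 and 408 on days 3 and 14 and Id2 319 and 488, neither of them called. Snai2, a repressor that competes with Myod1 at E-boxes, read 59.4 on day 3 and 249.7 on day 14 (4.2-fold higher). Hes6, which promotes differentiation in place of repressing it, was the 1 lower gene of the list and read 808 on day 3 and 303 on day 14 (2.66-fold lower).

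Notch signalling keeps satellite cells undifferentiated, and the receptor Notch3 and target genes of the pathway were among the higher genes. In the pathway list, of 22 measured genes (30 on the array), 8 were higher on day 14 (5 under every scaling) and 1 was lower (under every scaling), with a median log2 ratio of 0.55. The receptor Notch3 read 209 on day 3 and 1165 on day 14 (5.56-fold higher). The target genes Heyl and Hey1, transcriptional repressors of the Hes family, went the same way: Heyl read 208 on day 3 and 1169 on day 14 (5.63-fold higher) and Hey1 read 181 on day 3 and 623 on day 14 (3.44-fold higher). Hes1, the third target, read 318 on day 3 and 649.8 on day 14 (2.04-fold higher, a call not kept under every scaling). Numb, an inhibitor of the pathway, read 173 on day 3 and 682 on day 14 (3.94-fold higher), and Psen2, a subunit of the protease that releases the active Notch fragment, read 52.1 on day 3 and 145 on day 14 (2.79-fold higher). The ligand Dll1 read 516 and 405 on days 3 and 14 and was not called. Heyl is counted in the list of Id proteins and bHLH repressors as well, and Notch3 in the list of mural and smooth muscle markers.

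**Figure D3:**
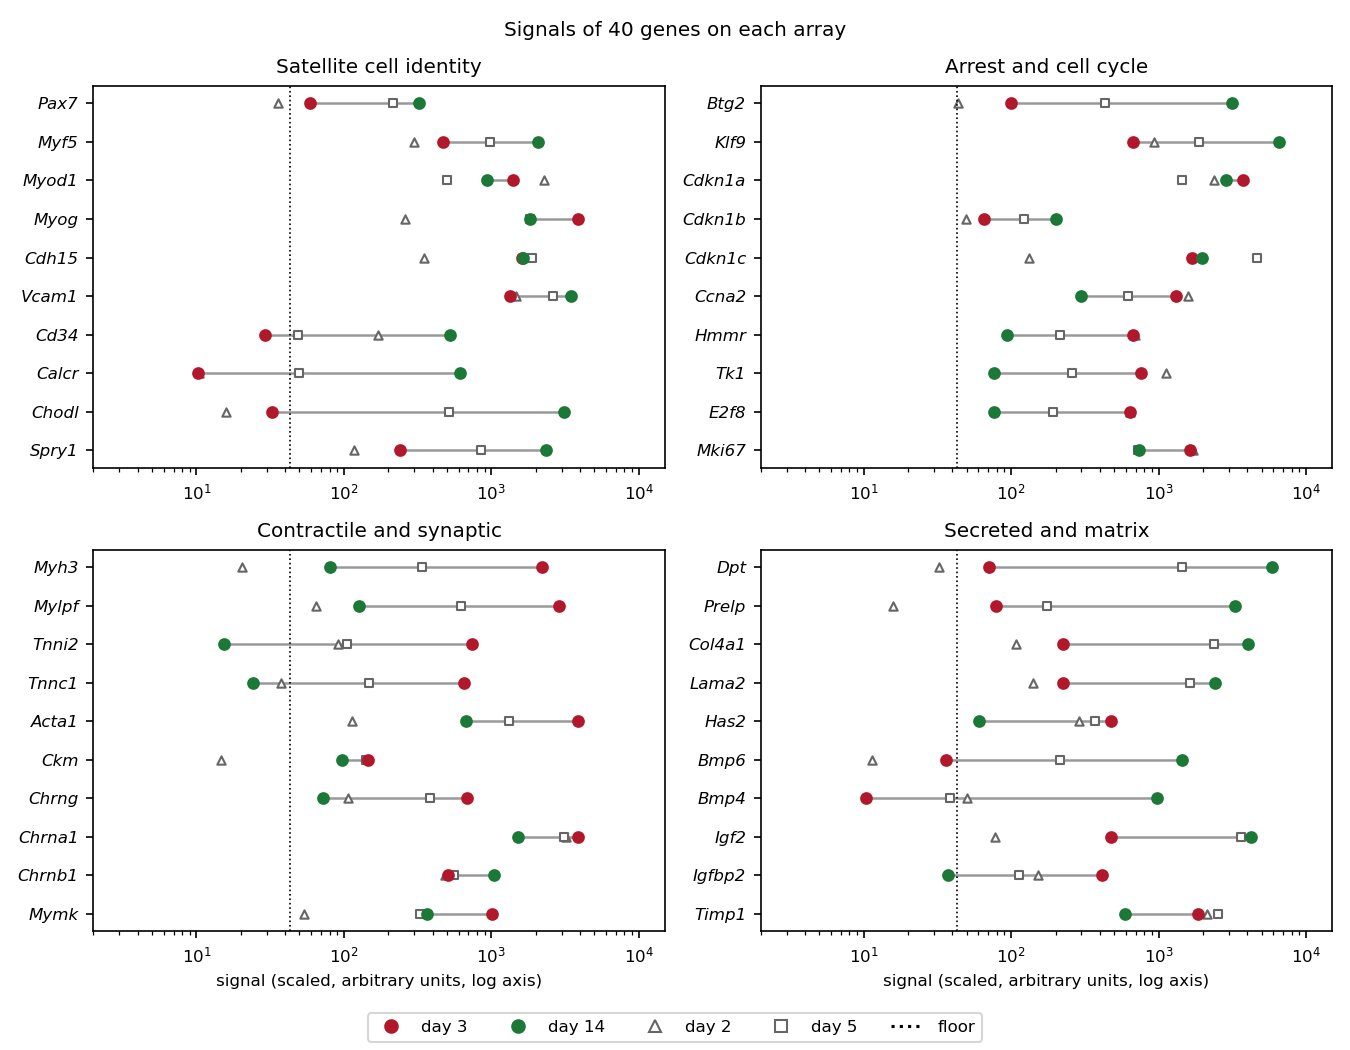
Signals of 40 genes (log axis, scaled MAS5 units) on the day 3 array (red), the day 14 array (green) and, for reference, the day 2 and day 5 arrays (open symbols), with the floor dotted. Chodl, Calcr, Cd34, Bmp6 and Bmp4 were below the floor on day 3 and above it on day 14, while Tnni2, Tnnc1 and Igfbp2 were the reverse.

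Contractile genes held many of the largest decreases of the comparison. In the sarcomere list, of 39 measured genes (50 on the array), 1 was higher on day 14 (under every scaling) and 18 were lower (all under every scaling), with a median log2 ratio of -0.82. Myh3, the embryonic myosin heavy chain of newly forming fibres, read 2210.1 on day 3 and 80.4 on day 14 (27.5-fold lower), although the probes of myosin heavy chains can cross-react between close copies. Mylpf, a fast myosin light chain, read 2896 on day 3 and 127 on day 14 (22.7-fold lower). Acta1, whose promoter window is printed above, read 3858 on day 3 and 679 on day 14 (5.68-fold lower). All 7 measured troponin genes, the calcium switch of the thin filament, were lower, with a median log2 ratio of -3.31 and a range from -4.11 to -2.55. They included fast and slow isoforms. The fast gene Tnni2 read 742 on day 3 and was below the floor on day 14 (at least 17.3-fold lower), and the slow gene Tnnc1 read 655 on day 3 and was below the floor on day 14 (at least 15.3-fold lower). Titin, the giant spring of the sarcomere encoded by Ttn, read 1093 on day 3 and 154 on day 14 (7.11-fold lower).

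Other genes of the same machinery were not called. Actc1, the cardiac alpha-actin that developing muscle also makes, read 2251 and 1497 on days 3 and 14, Des, the intermediate filament desmin, 1619.5 and 1232, and Ckm, muscle creatine kinase, 146 and 96.5. The log2 ratio of Des was -0.39 by its brightest probe set and 0.25 over the median of its measured probe sets. Of the 39 measured genes, 20 had no call. Pygm, muscle glycogen phosphorylase, was the 1 higher gene and read 45.8 on day 3 and 145 on day 14 (3.16-fold higher). With the floor at 100 the median of the list was -1.67, and over the genes above the floor on both arrays it was -1.52.

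The genes of the neuromuscular synapse divided by subunit. Chrng, the fetal subunit of the acetylcholine receptor, read 688 on day 3 and 71.8 on day 14 (9.59-fold lower, with log2 ratios from -3.26 to -0.99 and a median of -2.12 over its 2 measured probe sets). The alpha subunit Chrna1 read 3874 on day 3 and 1515 on day 14 (2.56-fold lower), and the delta subunit Chrnd read 99.7 on day 3 and was below the floor on day 14 (at least 2.32-fold lower). Chrnb1, the beta subunit, went the other way and read 507 on day 3 and 1050.3 on day 14 (2.07-fold higher, a call not kept under every scaling). Over excitation, calcium store and synapse genes, of 16 measured genes (25 on the array), 1 was higher on day 14 (none under every scaling) and 4 were lower (all under every scaling), with a median log2 ratio of -0.18, a median that changed sign with the scaling (from -0.37 to 0.03). Tmem38a, a potassium channel of the calcium store, read 102 on day 3 and was below the floor on day 14 (at least 2.38-fold lower).

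Genes of the dystrophin complex and of fusion also stood on both sides, 20% of the measured ones higher and 25% lower. Over all measured genes the shares were 16.3% and 11.5%. Dmd, which encodes dystrophin, was below the floor on day 3 and read 265 on day 14 (at least 6.18-fold higher), and Dag1, its membrane partner dystroglycan, read 2981 on day 3 and 6699 on day 14 (2.25-fold higher, a call not kept under every scaling, with log2 ratios from 1.17 to 2.56 and a median of 2.1 over its 4 measured probe sets). Sgca, a sarcoglycan of the same complex, read 158 on day 3 and 429 on day 14 (2.73-fold higher). Several genes of fusion and caveolae were lower: Cavin4, a muscle caveolar coat protein, read 917 on day 3 and 58.5 on day 14 (15.7-fold lower), Cav3, muscle caveolin, read 122 on day 3 and was below the floor on day 14 (at least 2.85-fold lower), and Myof, the membrane fusion protein myoferlin, read 894 on day 3 and 232 on day 14 (3.86-fold lower). Cdh2, N-cadherin, read 676 on day 3 and 153 on day 14 (4.43-fold lower). In the whole list, of 20 measured genes (23 on the array), 4 were higher on day 14 (3 under every scaling) and 5 were lower (all under every scaling), with a median log2 ratio of -0.17, which also changed sign with the scaling (from -0.51 to 0.04).

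Genes of DNA replication were lower on day 14 almost throughout. In the S phase list, of 49 measured genes (51 on the array), none was higher on day 14 and 41 were lower (38 under every scaling), with a median log2 ratio of -1.70. Tk1, a kinase that supplies thymidine nucleotides, read 765 on day 3 and 76.1 on day 14 (10.1-fold lower). The atypical E2F repressor E2f8 read 643 on day 3 and 76.6 on day 14 (8.39-fold lower), and Rrm2, the regulatory subunit of ribonucleotide reductase, read 2737 on day 3 and 416 on day 14 (6.58-fold lower, with log2 ratios from -3.48 to -2.72 and a median of -3.47 over its 3 measured probe sets). All 6 MCM subunits of the replicative helicase were lower, with log2 ratios from -2.22 to -1.22. Cdc6, whose window is printed above, read 245 on day 3 and 47.9 on day 14 (5.11-fold lower). Fen1, the flap endonuclease of lagging strand synthesis, read 1723 on day 3 and 281 on day 14 (6.13-fold lower). Even the member of the list with the smallest decrease had a log2 ratio of -0.57.

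Mitotic genes followed the same pattern. In the list for G2, spindle and mitosis, of 62 measured genes (62 on the array), none was higher on day 14 and 49 were lower (45 under every scaling), with a median log2 ratio of -1.67. Trip13, an ATPase of the spindle checkpoint, read 1283 on day 3 and 159 on day 14 (8.07-fold lower). Hmmr read 666 on day 3 and 93.4 on day 14 (7.12-fold lower, with log2 ratios from -2.83 to -0.36 and a median of -0.66 over its 3 measured probe sets), and Kif2c, a kinesin that removes tubulin at the centromere, read 531 on day 3 and 73 on day 14 (7.27-fold lower, with log2 ratios from -2.86 to -1.46 and a median of -2.16 over its 2 measured probe sets). Ube2c, the ubiquitin enzyme of the anaphase complex, read 1208 on day 3 and 187 on day 14 (6.45-fold lower), and Ccna2, cyclin A2, read 1306 on day 3 and 299 on day 14 (4.36-fold lower). On day 14, 57 of the 62 genes were still above the floor. Mki67, the common marker of dividing cells, read 1631 on day 3 and 737 on day 14 (2.21-fold lower, a call not kept under every scaling).

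The promoter windows of these lists differed in letters from those of the array as a whole. The CHR (TTTGAA or TTCGAA, both strands) stood in 72.7% of the 55 windows of mitosis genes and in 14.6% of all 12567 windows of genes on the array. The CCAAT box (CCAAT, both strands) stood in 78.2% of them against 37.1%, and both together in 65.5% against 5.76%. The E2F site (TTTCCCGC or TTTGGCGC, both strands) stood in 23.1% of the 52 windows of S phase genes against 2.5%. The E-box (CAGCTG, the same on both strands) stood in 47.1% of the 51 windows of sarcomere genes and in 45.0% of the 20 of excitation and synapse genes, against 16%. MEF2 and CArG sites, searched by their consensus on both strands, stood in 11.8% and 13.7% of sarcomere windows against 1.3% and 1.47%. A gene can have more than 1 window, and matches of different motifs were counted even where they overlap. Among all measured genes with a window, whatever their function, the motifs divided the calls less and not in 1 direction: of 416 genes with both a CHR and a CCAAT box 20% were lower, and of 5915 without both 11.2%. For the E2F site the shares were 18.1% of 243 and 11.5% of 6088. The E-box and the CArG box went the other way. Of genes with an E-box 10.6% were lower and of those without 12%, and for the CArG box 8.11% and 11.8%. For MEF2 the lower shares were 13.8% and 11.7%. Higher calls were more frequent with each of these muscle motifs than without it. The shares were 17.97% and 15.05% for the E-box, 22.5% and 15.4% for the CArG box and 21.3% and 15.5% for MEF2. With both a CHR and a CCAAT box 12.3% were higher and without both 15.8%, and for the E2F site 9.47% and 15.8%.

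Growth arrest genes that were called were all higher, and Cdkn1b was the 1 CDK inhibitor with a call. Among the whole list, of 33 measured genes (34 on the array), 16 were higher on day 14 (15 under every scaling) and none was lower, with a median log2 ratio of 0.99. Btg2, an antiproliferative gene that promotes mRNA decay, read 100.4 on day 3 and 3134 on day 14 (31.2-fold higher). Btg2 is also a member of the list of immediate early genes described further on. Klf9, a Krüppel-like repressor, read 667 on day 3 and 6562 on day 14 (9.84-fold higher). Gas6, a secreted ligand of TAM receptors first found in arrested cells, read 62.7 on day 3 and 808 on day 14 (12.9-fold higher), and Foxo1, a transcription factor restrained by insulin signalling, read 74.3 on day 3 and 459 on day 14 (6.17-fold higher). Among the inhibitors themselves, Cdkn1b (p27) read 65.2 on day 3 and 201 on day 14 (3.08-fold higher). Cdkn1a (p21) read 3751 and 2886 and Cdkn1c (p57) 1683 and 1969.5 on days 3 and 14, and neither was called, nor was Cdkn2c (p18, 569.8 and 675). Ccnd1, cyclin D1 of the entry into the cycle, read 801 on day 3 and 1324 on day 14 (1.65-fold higher, not called), and Rb1 read 263 on day 3 and 274 on day 14 (1.04-fold higher, not called).

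Chromatin genes were called on both sides, 11.1% of the measured ones higher and 31.1% lower, against 16.3% and 11.5% of all measured genes. In the list, of 45 measured genes (48 on the array), 5 were higher on day 14 (4 under every scaling) and 14 were lower (10 under every scaling), with a median log2 ratio of -0.53. Hmga2, an architectural protein of growing embryonic and stem cells, read 559 on day 3 and was below the floor on day 14 (at least 13-fold lower, with log2 ratios from -3.7 to -2.21 and a median of -2.64 over its 3 measured probe sets). Hells, a remodeller needed for DNA methylation, read 226 on day 3 and was below the floor on day 14 (at least 5.27-fold lower), and Dnmt1, which copies methylation at replication, read 925 on day 3 and 235 on day 14 (3.94-fold lower). Ezh1, the Polycomb methyltransferase of non-dividing cells, read 52.8 on day 3 and 265 on day 14 (5.02-fold higher), whereas its paralogue Ezh2 read 684 and 343 and lay just short of a lower call. Smarca2, an ATPase of the SWI/SNF complex, read 44.6 on day 3 and 207 on day 14 (4.64-fold higher, with log2 ratios from 0.41 to 2.21 and a median of 1.31 over its 2 measured probe sets), and its alternative Smarca4 read 1131 and 590.0, also without a call. In the repair list, of 27 measured genes (29 on the array), 1 was higher on day 14 (under every scaling) and 9 were lower (6 under every scaling), with a median log2 ratio of -0.53. Xpc, which recognises bulky DNA damage, was the 1 higher gene and was below the floor on day 3 and read 128 on day 14 (at least 2.98-fold higher), and Mre11a, a nuclease of double-strand break repair, read 261 on day 3 and 52.8 on day 14 (4.95-fold lower).

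**Figure D4:**
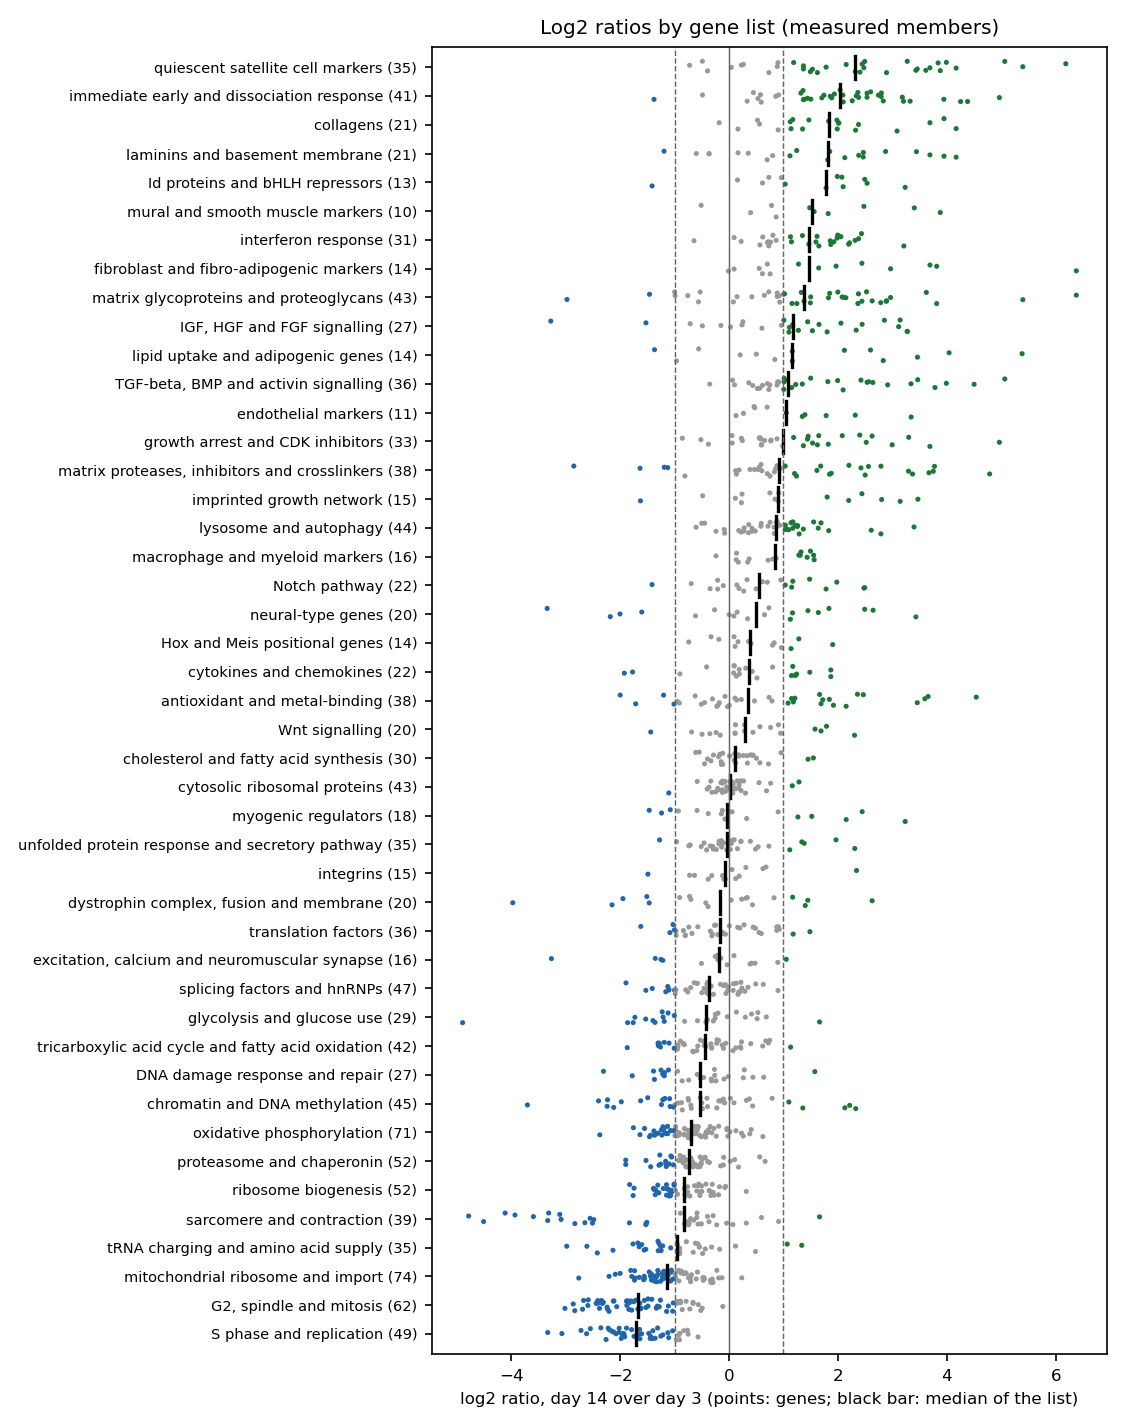
Log2 ratio of day 14 over day 3 (x axis) for every measured member of each gene list with at least 10 of them, with the number of measured members in brackets, the median as a black bar and dashed lines at 2-fold. The medians run from -1.70 for S phase genes to 2.32 for quiescence markers, and the members of most lists with a median near 0 lie between the dashed lines.

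Secreted ligands of the BMP and TGF-beta family were among the largest increases. In that list, of 36 measured genes (45 on the array), 22 were higher on day 14 (16 under every scaling) and none was lower, with a median log2 ratio of 1.09. Bmp6 was below the floor on day 3 and read 1437 on day 14 (at least 33.4-fold higher). Bmp4 was below the floor on day 3 and read 972 on day 14 (at least 22.6-fold higher), and it was also below the floor on day 5. Tgfb3 read 86.8 on day 3 and 958 on day 14 (11-fold higher), and Ltbp4, which stores latent TGF-beta in the matrix, read 62.9 on day 3 and 865 on day 14 (13.8-fold higher). Inhibitors were higher beside the ligands: the BMP antagonist Chrdl2 and the inhibitory Smad6 were at least 15.9-fold and at least 3.52-fold higher.

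Both insulin-like growth factors were higher. In the list of IGF, HGF and FGF signalling, of 27 measured genes (36 on the array), 17 were higher on day 14 (12 under every scaling) and 2 were lower (all under every scaling), with a median log2 ratio of 1.17. Igf1 read 114 on day 3 and 990.2 on day 14 (8.66-fold higher, with log2 ratios from 1.23 to 3.11 and a median of 1.81 over its 3 measured probe sets) and Igf2 read 478 on day 3 and 4220.0 on day 14 (8.83-fold higher). Their binding proteins divided: Igfbp4 and Igfbp7 were 5.04-fold higher and 5.44-fold higher, while Igfbp2 read 415 on day 3 and was below the floor on day 14 (at least 9.67-fold lower). The receptor Igf1r read 81.4 and 49.6 on days 3 and 14 and was not called. Pdgfc, a platelet-derived growth factor, read 82.8 on day 3 and 801 on day 14 (9.67-fold higher), and its relative Pdgfb read 213 on day 3 and 74 on day 14 (2.88-fold lower). The FGF receptors Fgfr1 and Fgfr4 were 7.22-fold higher, with log2 ratios from 1.64 to 2.85 and a median of 2.25 over its 2 measured probe sets and 2.89-fold higher.

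Wnt signalling guides both the growth and the differentiation of myoblasts. Of its measured genes 20% were higher and 5% lower, against 16.3% and 11.5% of all measured genes. Over this list, of 20 measured genes (34 on the array), 4 were higher on day 14 (all under every scaling) and 1 was lower (under every scaling), with a median log2 ratio of 0.28, a median that changed sign with the scaling (from -0.06 to 0.50). Wnt4 was below the floor on day 3 and read 212 on day 14 (at least 4.94-fold higher), and the receptors Fzd8 and Fzd4 were 3.46-fold higher and 2.99-fold higher. Sfrp4, a secreted Wnt binding protein, read 82.8 on day 3 and 267 on day 14 (3.22-fold higher). Wnt10a read 116 on day 3 and was below the floor on day 14 (at least 2.71-fold lower).

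Immediate early genes, transcription factors and feedback genes that respond within minutes to growth factors, stress or the dissociation of a tissue, were higher as a group. In the list, of 41 measured genes (44 on the array), 32 were higher on day 14 (31 under every scaling) and 1 was lower (under every scaling). The median log2 ratio was 2.04, and Btg2, given above with the growth arrest genes, had the largest ratio of the list. Atf3, a stress-induced factor, read 103 on day 3 and 1958 on day 14 (19.1-fold higher), and Egr2, a zinc finger factor, read 164 on day 3 and 2532 on day 14 (15.4-fold higher). Fos and Egr1 were already high on day 3: Fos read 3539 on day 3 and 9069 on day 14 (2.56-fold higher), and Egr1 read 2398 on day 3 and 9858 on day 14 (4.11-fold higher). Cebpd, a factor of the acute phase, read 128 on day 3 and 2673 on day 14 (20.8-fold higher). Hspa1a, an inducible heat shock protein, read 409.8 on day 3 and 4108 on day 14 (10-fold higher), and its near-identical copy Hspa1b, whose probes may share targets, read 962 on day 3 and 6666 on day 14 (6.93-fold higher). Fosl1, the Fos relative Fra-1, was the 1 lower gene and read 468 on day 3 and 180.1 on day 14 (2.6-fold lower). Both samples were isolated without culture by the labels, and the sources used here do not give the time each spent in isolation.

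Interferon-responsive and antigen presentation genes that were called were higher as well. In the interferon list, of 31 measured genes (34 on the array), 19 were higher on day 14 (17 under every scaling) and none was lower, with a median log2 ratio of 1.47. Iigp1, an interferon-induced GTPase, read 73.1 on day 3 and 677 on day 14 (9.26-fold higher, with log2 ratios from 1.96 to 3.21 and a median of 2.58 over its 2 measured probe sets), and Gbp2 read 54.5 on day 3 and 271 on day 14 (4.98-fold higher). Of 7 genes of MHC class I and peptide loading, 5 were higher, with a median log2 ratio of 1.99. B2m, the light chain of class I molecules, read 925 on day 3 and 4813 on day 14 (5.2-fold higher), and H2-K1, a heavy chain whose probes may read other class I genes, read 582 on day 3 and 3143 on day 14 (5.4-fold higher, with log2 ratios from 0.7 to 2.43 and a median of 1.77 over its 4 measured probe sets). In the class II list, of 6 measured genes (10 on the array), 5 were higher on day 14 (all under every scaling) and none was lower, with a median log2 ratio of 1.85. H2-Aa read 51.7 on day 3 and 470.4 on day 14 (9.1-fold higher, with log2 ratios from 0.35 to 3.19 and a median of 1.77 over its 2 measured probe sets), and Cd74, the invariant chain, read 46.3 on day 3 and 135 on day 14 (2.92-fold higher). With the floor at 100 the medians of the interferon and class II lists were 0.74 and 0.94.

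Class II genes are typical of myeloid cells, so the markers of that lineage are given beside them. In the macrophage and myeloid list, of 16 measured markers (22 on the array), 7 were higher on day 14 (4 under every scaling) and none was lower, with a median log2 ratio of 0.84. The summed signal of the 22 markers on the array was 1559 on day 3 and 3801 on day 14, and 9 and 16 of them were above the floor. Csf1r, the macrophage growth factor receptor, read 91 on day 3 and 269 on day 14 (2.96-fold higher). Lyz1 and Lyz2, near-identical lysozyme genes that cannot be told apart with certainty, were 2.82-fold higher and 2.43-fold higher, a call not kept under every scaling. Ctss, the protease cathepsin S, read 180.4 on day 3 and 529.5 on day 14 (2.94-fold higher), and Cd14, a receptor for bacterial lipid, read 77.4 on day 3 and 209 on day 14 (2.7-fold higher). Ctss is counted among the higher genes of the class II list as well, so these lists are not separate. Cd68, a lysosomal protein of macrophages, read 51.8 on day 3 and 128 on day 14 (2.47-fold higher, a call not kept under every scaling), and C1qb, a complement subunit, read 53.8 on day 3 and 134 on day 14 (2.5-fold higher, a call not kept under every scaling). Among the other markers, Itgam, Cd163, Fcer1g, Aif1, Coro1a and Cd53 were below the floor on both arrays, Ptprc, the leukocyte antigen CD45, was below the floor on day 3 and read 54.5 on day 14 (at least 1.27-fold higher, not called), and Adgre1 (F4/80) read 52.6 on day 3 and 86.5 on day 14 (1.65-fold higher, not called). The part of such cells in the class II signals was not tested. In bulk samples such as these, more cells of a type and more RNA per cell cannot be told apart.

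More cytokine genes were called higher than lower. By count, of 22 measured genes (37 on the array), 8 were higher on day 14 (3 under every scaling) and 2 were lower (all under every scaling), with a median log2 ratio of 0.37. The neutrophil chemokine Cxcl1 read 531 on day 3 and 1939 on day 14 (3.65-fold higher), and Il6 read 139 on day 3 and 507 on day 14 (3.65-fold higher). Mif, a widely expressed cytokine, read 4030.4 on day 3 and 1180.5 on day 14 (3.41-fold lower), and the alarmin Il33 read 163 on day 3 and was below the floor on day 14 (at least 3.79-fold lower).

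Extracellular matrix genes were higher far more often than lower in each of its classes. The classes share members: Col4a1, Col4a2 and Col15a1 are counted among collagens and again among laminins and basement membrane genes. Among collagens, of 21 measured genes (25 on the array), 16 were higher on day 14 (13 under every scaling) and none was lower, with a median log2 ratio of 1.83. Col4a1 and Col4a2, the 2 common chains of basement membrane collagen, went together: Col4a1 read 224 on day 3 and 4028 on day 14 (18-fold higher) and Col4a2 read 125 on day 3 and 1928 on day 14 (15.4-fold higher). The ratios of fibrillar collagens were smaller: Col1a1 read 329.7 on day 3 and 1301 on day 14 (3.95-fold higher) and Col3a1 read 3168 on day 3 and 8751 on day 14 (2.76-fold higher, with log2 ratios from 1.47 to 3.1 and a median of 2.28 over its 2 measured probe sets). Col15a1, a collagen of the basement membrane zone, was below the floor on day 3 and read 554 on day 14 (at least 12.9-fold higher). Among laminins and basement membrane genes, of 21 measured genes (22 on the array), 13 were higher on day 14 (11 under every scaling) and 1 was lower (under every scaling), with a median log2 ratio of 1.81. Lama2, the alpha chain of the main laminin of muscle, read 224 on day 3 and 2428 on day 14 (10.9-fold higher), and Lamc1, a gamma chain, read 82.6 on day 3 and 606 on day 14 (7.33-fold higher). Npnt, the integrin ligand nephronectin, was the 1 lower gene and read 98.3 on day 3 and was below the floor on day 14 (at least 2.29-fold lower, with log2 ratios from -1.19 to -0.45 and a median of -0.82 over its 2 measured probe sets).

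Dpt gave the largest ratio among genes above the floor on both arrays, while genes at the floor on day 3, such as Chodl, have only a lower bound and cannot be ranked against it. This matrix protein, dermatopontin, read 70.7 on day 3 and 5877 on day 14 (83.1-fold higher). In its list of glycoproteins and proteoglycans, of 43 measured genes (45 on the array), 26 were higher on day 14 (22 under every scaling) and 2 were lower (all under every scaling), with a median log2 ratio of 1.38. Lum and Dcn, the leucine-rich proteoglycans lumican and decorin, were 14.1-fold higher and 5.43-fold higher. Tnc, the tenascin of early regeneration, read 262 on day 3 and 435 on day 14 (1.66-fold higher, not called). Has2, which makes hyaluronan, and Thbs1, thrombospondin-1, were the lower genes: Has2 read 474 on day 3 and 60.2 on day 14 (7.86-fold lower) and Thbs1 read 253 on day 3 and 92 on day 14 (2.75-fold lower). Cd44, the hyaluronan receptor, read 1507 on day 3 and 754 on day 14 (2.0-fold lower, not called). Over the median of its measured probe sets the log2 ratio of Cd44 was -1.59. Has1, another hyaluronan synthase, read 138 on day 3 and 491 on day 14 (3.54-fold higher).

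Proteases of the matrix and their inhibitors held calls on both sides, 47.4% of the measured ones higher and 10.5% lower. Over all measured genes the shares were 16.3% and 11.5%. Counted together, of 38 measured genes (43 on the array), 18 were higher on day 14 (15 under every scaling) and 4 were lower (2 under every scaling), with a median log2 ratio of 0.91. The secreted serine protease Htra3 read 73.2 on day 3 and 2019 on day 14 (27.6-fold higher, with log2 ratios from 0.71 to 4.79 and a median of 2.13 over its 3 measured probe sets), and the gelatinase Mmp2 read 307 on day 3 and 4138 on day 14 (13.5-fold higher). Adamts5, which cleaves aggrecan and versican, was below the floor on day 3 and read 587 on day 14 (at least 13.7-fold higher, with log2 ratios from 2.53 to 3.77 and a median of 3.15 over its 2 measured probe sets). The tissue inhibitors that were called stood on opposite sides: Timp3 read 72.5 on day 3 and 266 on day 14 (3.67-fold higher), and Timp1 read 1842 on day 3 and 593 on day 14 (3.1-fold lower). Adam8, a membrane protease, read 309.7 on day 3 and was below the floor on day 14 (at least 7.21-fold lower), and Adam19 read 255 on day 3 and 117 on day 14 (2.18-fold lower, a call not kept under every scaling). Integrins, the receptors for these proteins, were largely without calls: of 15 measured genes (22 on the array), 1 was higher on day 14 (under every scaling) and 1 was lower (under every scaling), with a median log2 ratio of -0.07, changing sign with the scaling (from -0.22 to 0.16). Itgb5 read 169 on day 3 and 856 on day 14 (5.07-fold higher) and Itga3 read 184 on day 3 and 65.7 on day 14 (2.81-fold lower, with log2 ratios from -1.49 to -0.29 and a median of -0.89 over its 2 measured probe sets).

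Because fibroblasts and vessels also make matrix, their markers are given with it. In the fibroblast and fibro-adipogenic list, which itself holds matrix genes, of 14 measured markers (18 on the array), 8 were higher on day 14 (7 under every scaling) and none was lower, with a median log2 ratio of 1.46, and the summed signal of the list was 4768 on day 3 and 22258 on day 14. The higher members were Dpt, Lum, Dcn and Col15a1, given above, with Gsn, Mfap5, Gfpt2 and Pdgfra. Mfap5, a microfibril protein, read 45 on day 3 and 352 on day 14 (7.82-fold higher), and Gfpt2, an enzyme of hexosamine synthesis, read 109 on day 3 and 340.2 on day 14 (3.13-fold higher). Pdgfra, the receptor that marks these cells, was below the floor on day 3 and read 104 on day 14 (at least 2.42-fold higher, a call not kept under every scaling), Pi16 was below the floor on day 3 and read 63.1 on day 14 (at least 1.47-fold higher, not called), and Clec3b, Dpp4, Osr1 and Twist2 were below the floor on both arrays. Gsn, the actin-severing gelsolin, read 1852 on day 3 and 7234 on day 14 (3.91-fold higher). In the endothelial list, of 11 measured markers (16 on the array), 6 were higher on day 14 (5 under every scaling) and none was lower. The median log2 ratio was 1.05, and the summed signal was 3918 on day 3 and 6283 on day 14. Most of that sum on both days came from the caveolin Cav1, which had a log2 ratio of 0.27 and was not called. Ramp2, a subunit of the adrenomedullin receptor, read 88.1 on day 3 and 894 on day 14 (10.2-fold higher), and Tek, the angiopoietin receptor that satellite cells also carry, was below the floor on day 3 and read 214 on day 14 (at least 4.99-fold higher). Cldn5, a tight junction protein, was below the floor on day 3 and read 148 on day 14 (at least 3.44-fold higher), Esam, a junction molecule, was below the floor on day 3 and read 113 on day 14 (at least 2.63-fold higher), and Eng, the TGF-beta co-receptor endoglin, read 73 on day 3 and 186 on day 14 (2.54-fold higher). Pecam1, Cdh5, Tie1, Flt1 and Emcn were below the floor on both arrays, and Vwf was below the floor on day 3 and read 89 on day 14 (at least 2.07-fold higher, a call not kept under every scaling). On day 3, 4 of 16 endothelial markers were above the floor, and on day 14, 11.

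Mural and Schwann cell markers completed the comparison with other cell types. In the mural and smooth muscle list, of 10 measured markers (12 on the array), 6 were higher on day 14 (all under every scaling) and none was lower, with a median log2 ratio of 1.52, and the summed signal was 4403 on day 3 and 11445 on day 14. Rgs5, a regulator of G proteins in pericytes that is also in the quiescence list, read 136 on day 3 and 1997 on day 14 (14.7-fold higher, with log2 ratios from 0.49 to 3.88 and a median of 1.97 over its 4 measured probe sets), and Tagln, the smooth muscle protein transgelin, read 122 on day 3 and 1294 on day 14 (10.6-fold higher). Pdgfrb, a receptor of pericytes, read 66.7 on day 3 and 236 on day 14 (3.53-fold higher), and Mcam and Kcnj8 were at least 2.95-fold higher and at least 2.79-fold higher. Notch3, given above with the Notch pathway, was also among the higher members of this list. Acta2, smooth muscle actin, read 3596 on day 3 and 6176 on day 14 (1.72-fold higher, not called), while Cnn1 and Abcc9 were below the floor on both arrays and Myh11 was below the floor on day 3 and read 56.5 on day 14 (at least 1.32-fold higher, not called). Of the Schwann cell markers, Pmp22 read 282 on day 3 and 2972 on day 14 (10.6-fold higher), Sox10 was below the floor on day 14 and S100b on both arrays. Of 10 lymphocyte markers none was called. The part of any of these cell types in the matrix genes was not tested.

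Genes that build ribosomes were often lower and never higher, while ribosomal proteins had few calls. In the ribosome biogenesis list, of 52 measured genes (52 on the array), none was higher on day 14 and 23 were lower (10 under every scaling), with a median log2 ratio of -0.82. Nhp2, a protein of the small nucleolar box H/ACA particles, read 3064 on day 3 and 904 on day 14 (3.39-fold lower), and Polr1b, the second subunit of RNA polymerase I, read 212 on day 3 and 63.2 on day 14 (3.35-fold lower). Among cytosolic ribosomal proteins, of 43 measured genes (43 on the array), 2 were higher on day 14 (none under every scaling) and 1 was lower (none under every scaling), with a median log2 ratio of 0.01, a sign that changed with the scaling (from -0.33 to 0.23). Translation factors also had few calls: of 36 measured genes (36 on the array), 2 were higher on day 14 (1 under every scaling) and 4 were lower (1 under every scaling), with a median log2 ratio of -0.17, changing sign with the scaling (from -0.51 to 0.04). Eif4ebp1, which restrains cap-dependent translation, read 1724 on day 3 and 561 on day 14 (3.07-fold lower, with log2 ratios from -1.62 to -0.03 and a median of -0.94 over its 3 measured probe sets), and Eif4a2, a helicase of initiation, read 606 on day 3 and 1698 on day 14 (2.8-fold higher).

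In the list for tRNA charging and amino acid supply, of 35 measured genes (38 on the array), 2 were higher on day 14 (none under every scaling) and 17 were lower (16 under every scaling), with a median log2 ratio of -0.95. All 7 enzymes of serine and folate metabolism were lower, with log2 ratios from -2.61 to -1.30, and 9 of 18 aminoacyl-tRNA synthetases. Phgdh, the first enzyme of serine synthesis, read 3449.8 on day 3 and 565 on day 14 (6.11-fold lower). Mthfd2, a mitochondrial folate enzyme of growing cells, read 852 on day 3 and 159 on day 14 (5.35-fold lower), and Shmt2, which splits serine to feed it, read 783 on day 3 and 231 on day 14 (3.4-fold lower). Asns, asparagine synthetase, read 814 on day 3 and 103 on day 14 (7.89-fold lower). Ddit3, a stress factor that, like Asns, is a target of Atf4, stood on the other side and read 83.2 on day 3 and 209.9 on day 14 (2.52-fold higher, a call not kept under every scaling). Splicing factors had few calls: of 47 measured genes (47 on the array), none was higher on day 14 and 8 were lower (3 under every scaling), with a median log2 ratio of -0.37. Prpf31, a protein of the tri-snRNP, read 765 on day 3 and 206 on day 14 (3.71-fold lower).

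Genes of the proteasome and of the lysosome stood on opposite sides. In the list for proteasome and chaperonin, of 52 measured genes (52 on the array), none was higher on day 14 and 14 were lower (7 under every scaling), with a median log2 ratio of -0.73. Of 33 proteasome subunits, 10 were lower. Psma7, an alpha subunit of the core, read 1301 on day 3 and 349 on day 14 (3.72-fold lower), and Psme3, an activator of the proteasome, read 844 on day 3 and 227 on day 14 (3.72-fold lower, with log2 ratios from -1.9 to -0.36 and a median of -1.13 over its 2 measured probe sets). In the list for lysosome and autophagy, of 44 measured genes (44 on the array), 19 were higher on day 14 (8 under every scaling) and none was lower, with a median log2 ratio of 0.87. The cathepsins Ctsf and Ctsk led it: Ctsf was below the floor on day 3 and read 452 on day 14 (at least 10.5-fold higher), and Ctsk read 59.6 on day 3 and 412 on day 14 (6.91-fold higher). Gabarapl1, an autophagosome protein, read 209 on day 3 and 1278 on day 14 (6.11-fold higher), and Ulk1, the kinase that starts autophagy, read 106 on day 3 and 342 on day 14 (3.22-fold higher). The unfolded protein response had no common direction: of 35 measured genes (35 on the array), 5 were higher on day 14 (3 under every scaling) and 1 was lower (under every scaling), with a median log2 ratio of -0.04, with a sign that changed with the scaling (from -0.38 to 0.17). Herpud1, of the degradation machinery of the endoplasmic reticulum, read 206 on day 3 and 1021 on day 14 (4.96-fold higher).

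Nuclear genes for mitochondria were called lower far more often than higher, those for the mitochondrial ribosome and protein import most of all. In that list, of 74 measured genes (74 on the array), none was higher on day 14 and 43 were lower (31 under every scaling), with a median log2 ratio of -1.15. Of 52 mitochondrial ribosomal proteins 29 were lower, and of 22 import factors and chaperones 14. Mrpl18 read 799.7 on day 3 and 118 on day 14 (6.77-fold lower), and Tomm70a, a receptor of the outer membrane, read 790.0 on day 3 and 226 on day 14 (3.49-fold lower). Among genes of oxidative phosphorylation, of 71 measured genes (73 on the array), none was higher on day 14 and 20 were lower (12 under every scaling), with a median log2 ratio of -0.70. Atp5g1, a gene for the c ring of ATP synthase, read 2073 on day 3 and 400.0 on day 14 (5.18-fold lower), and Cycs, cytochrome c, read 4087 on day 3 and 1316 on day 14 (3.11-fold lower). By complex, 8 of 30 subunits of complex I were lower and 2 of 15 of ATP synthase, the latter near the 11.5% of all measured genes. In the list for the tricarboxylic acid cycle and fatty acid oxidation, of 42 measured genes (45 on the array), 1 was higher on day 14 (none under every scaling) and 8 were lower (5 under every scaling), with a median log2 ratio of -0.44. Idh3a, a subunit of the mitochondrial isocitrate dehydrogenase, read 2262 on day 3 and 619 on day 14 (3.65-fold lower).

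Glycolysis held the largest decrease among genes above the floor on both arrays, and genes at the floor on day 14, such as Kcnn4, cannot be ranked against it. Eno3, the muscle form of enolase, read 4392 on day 3 and 148 on day 14 (29.7-fold lower). Across the pathway, of 29 measured genes (34 on the array), 1 was higher on day 14 (under every scaling) and 12 were lower (8 under every scaling), with a median log2 ratio of -0.42. Pgam1, the widely expressed phosphoglycerate mutase, read 1777 on day 3 and 489 on day 14 (3.64-fold lower), and Pgam2, its muscle form, read 146 on day 3 and was below the floor on day 14 (at least 3.39-fold lower). Gys1, muscle glycogen synthase, read 187 on day 3 and 56.5 on day 14 (3.31-fold lower), whereas Pygm, which breaks glycogen down, was 3.16-fold higher. Egln3, an oxygen-sensing hydroxylase induced by low oxygen, read 523 on day 3 and was below the floor on day 14 (at least 12.2-fold lower, with log2 ratios from -3.6 to -0.89 and a median of -2.25 over its 2 measured probe sets). Gapdh read 7887 on day 3 and 5913 on day 14 (1.33-fold lower, not called).

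Of antioxidant and metal-binding genes, most calls were higher. In the list, of 38 measured genes (39 on the array), 16 were higher on day 14 (12 under every scaling) and 4 were lower (2 under every scaling), with a median log2 ratio of 0.35. Txnip, an inhibitor of thioredoxin and of glucose uptake, read 62.6 on day 3 and 1455 on day 14 (23.3-fold higher, with log2 ratios from 1.48 to 4.54 and a median of 3.01 over its 2 measured probe sets). Gpx3 and Selenop, secreted selenoproteins, were 11-fold higher and 12.1-fold higher. Iron genes stood on opposite sides: Cp, the copper ferroxidase ceruloplasmin, was below the floor on day 3 and read 541 on day 14 (at least 12.6-fold higher, with log2 ratios from 0.93 to 3.66 and a median of 1.9 over its 7 measured probe sets), Slc40a1, the iron exporter ferroportin, read 52.6 on day 3 and 290.4 on day 14 (5.52-fold higher, with log2 ratios from 0.53 to 2.47 and a median of 1.5 over its 2 measured probe sets), and Tfrc, the transferrin receptor for iron uptake, read 1316 on day 3 and 329 on day 14 (4.0-fold lower, with log2 ratios from -2.0 to -0.13 and a median of -1.06 over its 2 measured probe sets). Among lipid uptake and adipogenic genes, of 14 measured genes (23 on the array), 8 were higher on day 14 (6 under every scaling) and 1 was lower (under every scaling), with a median log2 ratio of 1.16. Apoe, a lipid carrier, read 112 on day 3 and 4662 on day 14 (41.7-fold higher), and Fabp4, a fatty acid binding protein of adipocytes and endothelium, was below the floor on day 3 and read 707 on day 14 (at least 16.5-fold higher). Cholesterol and fatty acid synthesis had few calls: of 30 measured genes (31 on the array), 2 were higher on day 14 (all under every scaling) and none was lower, with a median log2 ratio of 0.11, changing sign with the scaling (from -0.23 to 0.33).

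Several of the largest changes lay outside these lists. Abca8a, a lipid transporter, was below the floor on day 3 and read 3011 on day 14 (at least 70.1-fold higher). Itih5, a hyaluronan-associated protein, read 108 on day 3 and 5833 on day 14 (53.8-fold higher). Nrep, a neuronal regeneration protein, read 75.1 on day 3 and 2747 on day 14 (36.6-fold higher). Serping1, the C1 inhibitor of complement, read 151 on day 3 and 4265 on day 14 (28.3-fold higher), and Aldh1a1, which makes retinoic acid, was below the floor on day 3 and read 1146 on day 14 (at least 26.7-fold higher). Among decreases, Kcnn4, a calcium-activated potassium channel of proliferating cells, read 1055 on day 3 and was below the floor on day 14 (at least 24.6-fold lower, with log2 ratios from -4.62 to -2.86 and a median of -3.74 over its 2 measured probe sets). The partner keratins of simple epithelia were both lower: Krt8 read 720.4 on day 3 and was below the floor on day 14 (at least 16.8-fold lower) and Krt18 read 484 on day 3 and was below the floor on day 14 (at least 11.3-fold lower). St8sia2, which adds polysialic acid to adhesion molecules, read 567 on day 3 and was below the floor on day 14 (at least 13.2-fold lower, with log2 ratios from -3.72 to -2.23 and a median of -2.98 over its 2 measured probe sets).

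Different probe sets of a gene gave an estimate of technical spread, although they read 1 RNA sample and do not replace replicates. Over 2154 genes with several probe sets above the floor, the log2 ratio had an SD of 0.47 between probe sets of a gene (n = 5261 probe sets). Of 805 called genes with several measured probe sets, 732 (90.9%) had all of them on 1 side. The probe sets of 4 genes were called in opposite directions. For Nus1, a subunit of the enzyme that makes dolichol, log2 ratios of -1.62 and 1.14 were read, and for Parva, an actin linker of integrins, -1.80 and 1.44. For Samhd1, a nucleotide hydrolase, they ran from -1.08 to 1.36, and for Uhrf1bp1l from -1.10 to 1.06. No direction is given for these genes, although the calls of their brightest probe sets are in the counts.

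The remaining arrays, of days 5 and 2, form a pair that shares no array with days 14 and 3, with 19.8% of its 7445 measured genes higher on day 5 and 11.4% lower. Of the genes higher on day 14 than on day 3, 766 (60.3%) were also higher on day 5 than on day 2, and these are 52.1% of the genes higher there. Of the lower genes, 453 (50.6%) were also lower, which is 53.4% of the lower genes of the other pair. Across 7289 genes measured in both pairs the log2 ratios had a Pearson r of 0.68 and a Spearman rho of 0.70, a description across genes, which are not independent replicates. Opposite calls were 4 genes higher on day 14 and lower on day 5, and 38 lower on day 14 and higher on day 5. The 4 were Cd34, Clcf1, Cxcl2 and Zfp503. The 38 included Myog, Mymk, Chrng and 12 of the sarcomere list, Acta1 among them.

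The sarcomere list stood on opposite sides in these pairs. Of its 34 genes measured on days 5 and 2, 20 were higher on day 5 and none was lower, and the median log2 ratio was 1.21 against -0.82 for day 14 over day 3. Myh3 was below the floor on day 2 and read 2210.1, 339 and 80.4 on the later days in order. Acta1 read 114, 3858, 1318 and 679 on days 2, 3, 5 and 14. Myogenic regulators were also apart, at 0.90 and -0.04. The cell cycle lists were close in both pairs, with medians of -1.50 and -1.70 for S phase and -1.52 and -1.67 for mitosis. Collagens had a higher median in the earlier pair, 3.11 against 1.83, and quiescence markers a lower one, 1.39 against 2.32. These differences between pairs were not tested, as each pair is 2 arrays.

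**Figure D5:**
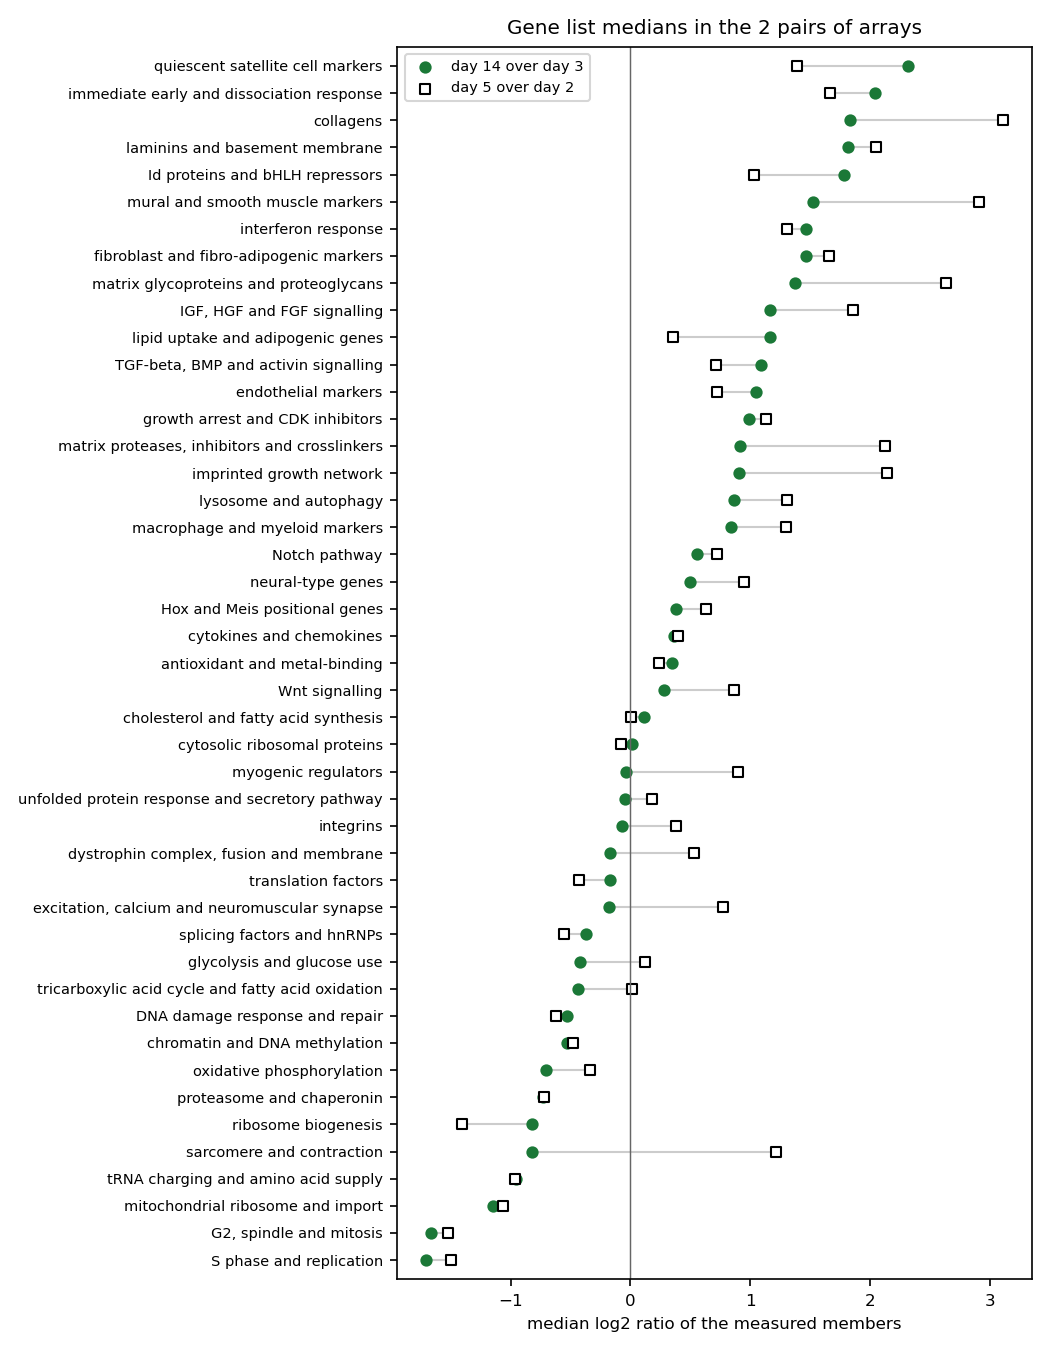
Median log2 ratio of each gene list with at least 10 measured members (x axis) for day 14 over day 3 (filled circles) and day 5 over day 2 (open squares). The symbols for the sarcomere list lie on opposite sides of 0, at -0.82 and 1.21, and those for S phase genes lie at -1.70 and -1.50.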

How the data were processed

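RNA of freshly isolated myogenic cells was extracted with the RNeasy Mini kit, amplified and biotin-labelled with Affymetrix's small sample assay, version II, and hybridised to Mouse 430A arrays, per the labels' protocols. The deposited intensity of each of 22690 probe sets is a MAS5 signal, per the submitters' processing notes, and the sources used here do not give its settings. Amplification of small samples favours 3′ ends, so the ratio of 3′ to 5′ probe sets is given with the results. The deposited columns did not share a 2% trimmed mean (174 on day 3 and 201 on day 14), so each array was scaled to the mean of the 4 arrays' trimmed means, by factors of 1.13 and 0.976.

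Values below the median of all scaled signals (43.0) were set to it, log2 was taken, and day 14 minus day 3 was computed for each probe set. Of 21084 probe sets in the platform annotation, 20393 carried 1 gene symbol and were used, and 691 carried several; these and 1606 unlisted ones were not used. Through Entrez numbers 20364 matched RefSeq (GRCm38.p6). Each gene took the value of its brightest probe set, by mean log2 signal over the 4 arrays. A ratio of at least 2-fold was a call. No test was possible with 1 array a day.

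The members, lists and motifs were chosen with earlier results of these data known. A gene can be in more than 1 list. Genes were named by a rule: the 14 largest increases and decreases with probe sets of 1 sign, up to 5 called genes of each list by size, a fixed set of myogenic, cell cycle, growth factor and reference genes, markers of other cell types, and genes whose probe sets were called in opposite directions. Further genes were named after their values were seen: Actc1, Adam8, Adam19, Cd44, Cdc6, Col3a1, Dag1, Des, Dll1, Dnmt1, Ezh2, Fgfr1, Fgfr4, Fosl1, Gatm, Gnas, Has1, Hes6, Hoxa9, Hspa1b, Igf1r, Igf2r, Igfbp4, Igfbp7, Npnt, Pdgfb, Peg3, Sema3a, Sgca, Smad6, Smarca2, Smarca4, Tfrc, Thbs1, Timp1, Timp3, Tnc, Ttn, Tubb3, the genes with opposite calls on days 5 and 2, and the subgroups of lists. Scaling, floor, probe set, filter and call threshold were varied 1 at a time in 13 settings. The calculation was tested on simulated data. Python 3.11.15, pandas 2.3.3, numpy 2.4.6, scipy 1.17.1 and matplotlib 3.10.9 were used.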

Additional observations from a re-analysis of the deposited data

How the results depend on the processing

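Scaling moved the balance of calls most: higher calls made up 72.5% as deposited, 52.5% after quantile normalization, 50.6% on hybridisation controls and 35.1% on a common median, which gave 807 higher and 1495 lower genes. The share was 61.5% with the floor at 20, 53.4% with the floor at 100 (818 higher), 54.6% among genes above the floor on both arrays and 65.7% at 3-fold. A threshold of 1.5-fold gave 2218 higher and 1704 lower calls and one of 3-fold 589 and 307, by construction. With the floor at 100, medians were 1.78 for quiescence markers, -1.67 for sarcomere genes, 0.85 for cytokines, 0.74 for interferon genes, 0.94 for class II genes and 0.78 for mural markers. Among genes above the floor on both arrays they were 1.58 for quiescence markers, -1.52 for sarcomere genes, 1.18 for cytokines, 1.32 for macrophage markers and -0.19 for Hox genes. The median of Id and bHLH repressors was 1.0 with the floor at 20 and 1.06 over the median of probe sets. With log2(value + 32) cytokines were at 0.84 and Schwann markers at 1.32, and with the floor at 20 Schwann markers were at 1.88. Nus1 turned to -0.24 and Parva to -0.18 over the median of probe sets, and to -1.62 and -1.80 without probe sets that can match several transcripts. Apart from the thresholds, the cause of these shifts was not tested. Of 269 called genes chosen by the naming rule or named later, 10 lost the call as deposited, 16 on a common median, 6 after quantile normalization, 3 on hybridisation controls, 35 with the floor at 100, 12 with log2(value + 32) and 13 over the median of probe sets. No paired analysis was possible because each day has 1 array and the labels give no replicate numbers. With no replicate, differences between animals, isolations and arrays cannot be told apart from differences between days.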

Other observations

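Imprinted genes of the growth network, which act on the size of embryos and on stem cells, were higher in part. In that list, of 15 measured genes (20 on the array), 6 were higher on day 14 (all under every scaling) and 1 was lower (under every scaling), with a median log2 ratio of 0.91. Meg3, a maternally expressed long RNA, read 146 on day 3 and 1613 on day 14 (11.1-fold higher), and Plagl1, a zinc finger factor of the network, read 623 on day 3 and 4346 on day 14 (6.98-fold higher). Igf2r, the receptor that removes Igf2, read 178 on day 3 and 619.6 on day 14 (3.48-fold higher), beside Igf2 itself. Peg3 and Gnas read 2119 and 3992, and 4272 and 8009, on days 3 and 14 without a call. Gatm, a creatine synthesis enzyme, was the 1 lower gene and read 216 on day 3 and 69.8 on day 14 (3.09-fold lower).

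Genes better known from neurons stood on both sides, 40% of the measured ones higher and 20% lower. Over all measured genes the shares were 16.3% and 11.5%. In that list, of 20 measured genes (37 on the array), 8 were higher on day 14 (6 under every scaling) and 4 were lower (all under every scaling), with a median log2 ratio of 0.50. Edn3, the peptide endothelin-3, was below the floor on day 3 and read 463 on day 14 (at least 10.8-fold higher, with log2 ratios from 1.36 to 3.43 and a median of 2.39 over its 2 measured probe sets), and Dcx, a microtubule protein of migrating neurons, was below the floor on day 3 and read 242 on day 14 (at least 5.62-fold higher, with log2 ratios from 0.67 to 2.49 and a median of 1.58 over its 2 measured probe sets). Plxna2, a semaphorin receptor, read 43.2 on day 3 and 270.0 on day 14 (6.25-fold higher), and Sema3a, a guidance ligand, read 66.4 on day 3 and 207 on day 14 (3.12-fold higher). Nrcam, a neural adhesion molecule, read 435 on day 3 and was below the floor on day 14 (at least 10.1-fold lower), Nes, the intermediate filament nestin, read 1448 on day 3 and 319 on day 14 (4.53-fold lower), and Tubb3, a neuronal tubulin, read 130.4 on day 3 and was below the floor on day 14 (at least 3.04-fold lower). Among positional genes of the limb and trunk, of 14 measured genes (33 on the array), 3 were higher on day 14 (1 under every scaling) and none was lower, with a median log2 ratio of 0.38. The higher genes were 21.4% of the measured ones, against 16.3% of all measured genes. Of the 14 ratios 9 touched the floor, and among genes above the floor on both arrays the median was -0.19. Hoxc9 was below the floor on day 3 and read 161 on day 14 (at least 3.74-fold higher), and Hoxa9 read 437 on day 3 and 384 on day 14 (1.14-fold lower, not called).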
